A study of Macaca mulatta with 6 samples.

Results

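The cytosolic ribosomal proteins are the proteins of the ribosomes that translate messenger RNA outside mitochondria. They were read here in serotonin neurons of female rhesus macaques, captured by laser from sections of the dorsal raphe nucleus. Members were the probe sets whose platform annotation gives exactly 1 gene symbol, with that symbol starting RPL or RPS and a digit, or being RPLP0, RPLP1, RPLP2 or RPSA. Kinases of the RPS6K family and the mitochondrial MRPL and MRPS genes were left out. The rule found 69 probe sets of 41 genes among 52766 probe sets, of which 24956 carry 1 symbol and name 14132 genes. By role, 22 of the 41 genes code for large-subunit proteins, 12 for small-subunit proteins and 6 for close relatives (paralogues) of such a protein. The remaining gene, RPS19BP1, carries the letters of the rule but codes for a nucleolar partner of RPS19 rather than a ribosomal protein.

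Monkeys carried capsules under the skin for 1 month, holding estrogen and progesterone, estrogen, or placebo. The placebo titles carry an Ovx tag (commonly short for ovariectomized) and the hormone titles do not, so the ovarian state of the hormone groups is taken from no label. Each group had 2 monkeys and each monkey 1 Affymetrix rhesus array, called E+P 1, E+P 2, E 1, E 2, placebo 1 and placebo 2 here. No label says how many neurons were captured, which hormone levels were reached or how old the animals were. With 2 animals a group, p-values measure only the spread between these few animals and their arrays, pooled over the 3 groups. The number of arrays limits the precision.

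Each ribosome joins a small subunit, which holds and decodes the message, to a large subunit, which forms peptide bonds and lets the new chain leave through a tunnel. Nearly all ribosomal protein transcripts start with a run of pyrimidines, the terminal oligopyrimidine tract, through which the kinase mTOR adjusts their translation. Neurons also keep ribosomes in dendrites, where transcripts are translated near synapses. Estrogen and progesterone act largely through nuclear receptors that change transcription.

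The deposited signals are linear intensities scaled so that each array had a trimmed mean near 200. A floor was set on each array at the 95th percentile of 59 control probe sets. It stood at 74.9 on E+P 1 and 283 on E+P 2, 29.99 on E 1 and 51.6 on E 2, and 216 on placebo 1 and 221 on placebo 2. The shares of all probe sets above it were 49.6% and 28.7% with estrogen plus progesterone, 62.2% and 58.5% with estrogen, and 37.3% and 36.3% with placebo. So E+P 2 and both placebo arrays had high floors and few probe sets above them, while E+P 1 stood with the estrogen arrays. Treatment and array quality therefore cannot be told apart in estrogen against placebo, and the E+P group holds 1 array of each kind.

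Ribosomal protein signals moved with this split. The median over 37 tested genes was 47.1 times the floor on E+P 1 and 1.21 times on E+P 2, 105 and 92.5 times with estrogen, and 4.22 and 4.43 times with placebo. The control probe sets for GAPDH, which read the 3′ and the 5′ part of the transcript, show how well long cDNA was made. Their 3′ over 5′ ratio was 22.0 on E+P 1 and 28.0 and 3.41 on the estrogen arrays. On E+P 2 it was at least 266, and on the placebo arrays at least 343 and at least 498, where the floor stood in for a 5′ signal that did not exceed it. Hybridization controls, transcripts added just before hybridization, had geometric mean signals of 6186 and 31264 with estrogen plus progesterone, 3701 and 4603 with estrogen, and 19740 and 24184 with placebo. They were bright where ribosomal protein signals were low. The part of this array quality in the differences below was not tested. In captured tissue, fewer cells and less RNA per cell cannot be told apart either.

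**Figure D1:**
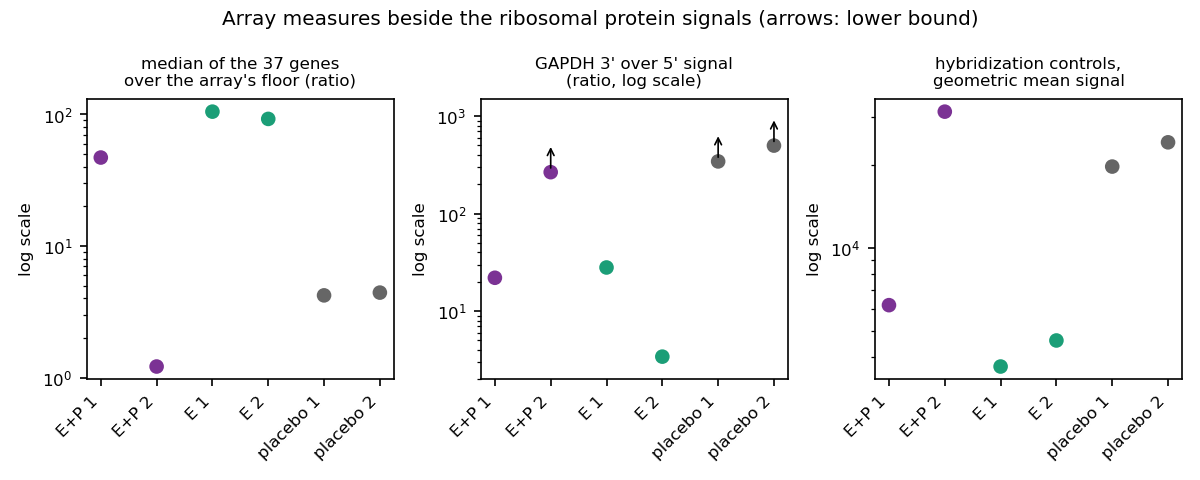
Measures of the 6 arrays on log scales: the median signal of the 37 ribosomal protein genes over the floor, the 3′ over 5′ signal of GAPDH, and the geometric mean signal of the hybridization controls (purple estrogen plus progesterone, green estrogen, grey placebo; arrows mark lower bounds). E+P 2, at 1.21 times the floor, has the lowest ribosomal protein median and the highest hybridization controls.

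The labelled cell type was checked with marker lists. Of 9 named serotonin neuron markers, 6 and 4 exceeded the floor with estrogen plus progesterone, 7 and 8 with estrogen, and 4 and 5 with placebo. FEV, a transcription factor that marks serotonin neurons, exceeded it on all 6 arrays. TPH2, the neuronal enzyme of serotonin synthesis, did so on 2, the estrogen arrays, at signals of 54.0 and 63.2, and it did not pass the filter on low values. Its signals were 12.5 and 243 with estrogen plus progesterone and 126 and 211 with placebo, under the higher floors of those arrays. The count of TPH2 thus follows the floors and shows no difference between treatments. General neuron markers exceeded the floor in 7 and 6, 7 and 7, and 7 and 7 of 7 cases, in the same group order. Markers of other cells were also present: astrocyte markers in 7 and 5, 7 and 8, and 6 and 6 of 8, microglial markers in 8 and 4, 10 and 10, and 7 and 9 of 10, and oligodendrocyte markers in 3 of 3 on every array. Summed astrocyte signal was 77003 and 3878 with estrogen plus progesterone, 66759 and 76823 with estrogen, and 21998 and 23609 with placebo, so it was lowest on E+P 2 as well. Summed serotonin neuron signal was 1953 and 2581, 2061 and 1361, and 2248 and 2181, and was highest on E+P 2. Such sums count values under the floor, and on E+P 2 only 4 of the 9 markers exceeded its floor of 283. That sum therefore does not show more serotonin neuron RNA on E+P 2. For general neuron markers the sums were 31833 and 3067, 32769 and 33250, and 11168 and 16051, lowest on E+P 2. For oligodendrocytes the sums were 51218 and 2723, 36856 and 52739, and 33774 and 46791, and for microglia 6063 and 2297, 4733 and 4693, and 3169.7 and 3985. Endothelial markers exceeded the floor in 4 and 1, 5 and 5, and 2 and 3 of 7, FLT1 and KDR on no array, and red-cell markers in 1 and 1, 1 and 2, and 2 and 2 of 2. The part of these cells in the ribosomal protein signal was not tested.

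Ribosomal protein transcripts were among the brighter signals of the captured tissue on 5 of the 6 arrays. Of the 69 member probe sets, 55 and 35 exceeded the floor with estrogen plus progesterone, 59 and 54 with estrogen, and 52 and 48 with placebo. In all, 64 did so on at least 1 array, or 92.8% against 80.5% of all probe sets, and 30 did so on all 6, or 43.5% against 10.1%. Among all probe sets, the median tested gene of the family stood at percentiles of 98.7 and 80.1 with estrogen plus progesterone, 98.3 and 99.2 with estrogen, and 97.3 and 97.4 with placebo. The median of all tested genes stood between percentiles of 67.1 and 81.2, the lowest of them on E+P 2. On E+P 2 the family median thus lay near where all genes lay on the better arrays.

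**Figure D2:**
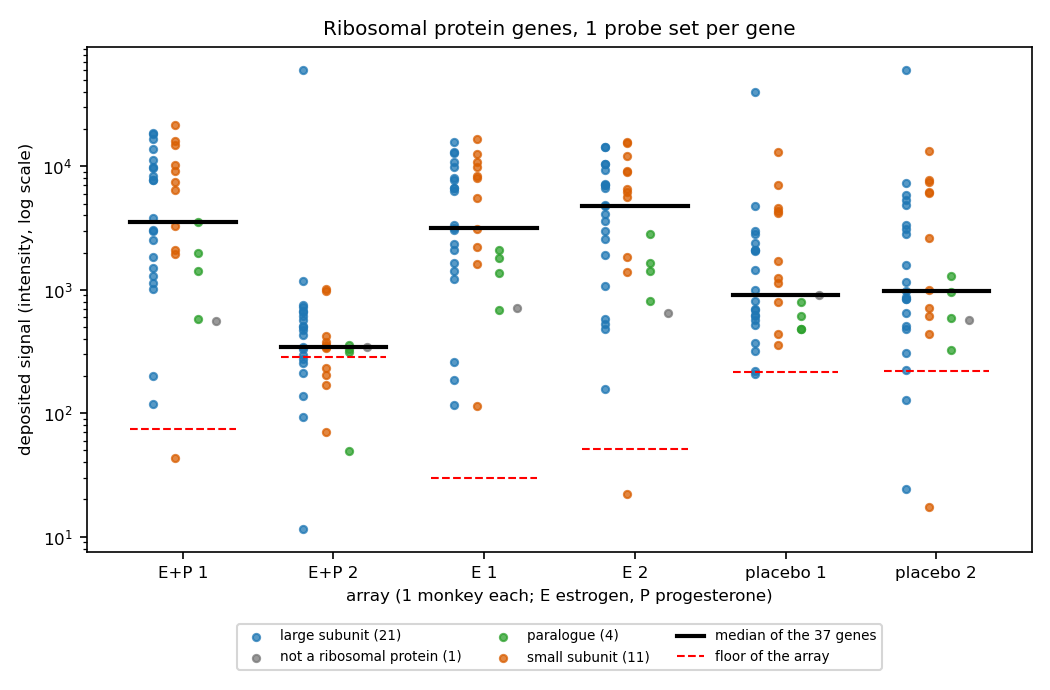
Deposited signal (log scale) of the 37 tested ribosomal protein genes on each array, 1 point per gene by role, with the median (black bar) and the floor of the array (red dashes). The median is 344 on E+P 2 against a floor of 283, and 911 or more on each of the other arrays.

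A filter on low values kept 54 of the 69 probe sets and 37 of the 41 genes, 1 probe set standing for each gene by its highest mean. RPL3L, the striated-muscle relative of RPL3, had signals of 21.2 and 23.5 with estrogen plus progesterone, 25.4 and 3.74 with estrogen, and 31.0 and 26.1 with placebo, so it exceeded the floor nowhere. RPL5, which carries ribosomal RNA into the large subunit and binds MDM2, was not above the floor on any array either. Nor was RPS19, the small-subunit protein most often mutated in Diamond-Blackfan anaemia. The 2 probe sets of RPS27L, a p53-induced relative of RPS27, each exceeded the floor on 1 array. A probe set below the floor says nothing on whether the transcript was present. RPLP0, RPSA, RPL10, RPL11, RPS27A, RPS4X, RPS4Y1, RPL10L and RPL39L had no probe set with a single symbol and are not analysed here.

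Within a group, the arrays of the E+P pair differed most. The median absolute log2 difference between the 2 arrays of a group was 2.82 for the 37 genes with estrogen plus progesterone, 0.355 with estrogen and 0.625 with placebo. For all tested genes it was 1.55, 0.361 and 0.875. Array E+P 2 was the lowest of the 6 for 30 of 37 ribosomal protein genes, on deposited signals and on normalised values alike, against 38.7% and 43.2% of all genes. Across the 69 member probe sets, log2 signals correlated at 0.973 between E+P 1 and E 1 and at 0.956 between the estrogen arrays. Between the placebo arrays the correlation was 0.904, and between E+P 2 and each other array it was 0.572 to 0.675. Over all 26383 tested probe sets, E+P 1 and E 1 stood at 0.913, the estrogen arrays at 0.862 and the placebo arrays at 0.518. There, E+P 2 stood at 0.00048 with E+P 1, -0.050 and -0.041 with the estrogen arrays, and 0.333 and 0.290 with the placebo arrays. These correlations are across probe sets that share their arrays and are given as a description.

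For the comparisons, log2 of the signal plus 16 was quantile-normalised and fitted with limma over 26383 probe sets. Differences below are on that log2 scale with their standard error (SE), and quantile normalisation makes them relative to the whole of each array. No probe set passed an adjusted p of 0.05 in any comparison, which is 0% of those tested in each. At an unadjusted p under 0.05, limma counted 2065 probe sets (7.83%) for estrogen against placebo, 870 (3.3%) for estrogen plus progesterone against placebo and 464 (1.76%) for estrogen plus progesterone against estrogen. Of the 54 member probe sets, 5, 6 and 1 did so. The fit pools the spread over all 3 groups, so every SE below also holds the difference between E+P 1 and E+P 2. With the estrogen and placebo arrays fitted alone, 5117 of 26383 probe sets had an unadjusted limma p under 0.05. Of the 54 member probe sets 15 did, and none passed an adjusted p of 0.05. The smallest p that an exact permutation of 2 animals against 2 can give is 0.333. The comparisons of a hormone group with placebo share the placebo arrays, and the last uses both hormone groups again.

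Estrogen against placebo asks what estrogen alone did. Ribosomal protein genes tended to be brighter on the estrogen arrays, but no gene passed the test (lowest adjusted p = 0.635, limma with Benjamini-Hochberg adjustment). The median difference was 0.447 over 37 genes, against 0.280 over 9781 genes. Of the 37, 28 lay above 0, or 75.7% against 60.6% of all genes, and 9 lay below, against 39.4% of all genes. Both estrogen arrays lay above both placebo arrays in 20 of 37 genes, or 54.1%, against 30.6% of all genes. Both lay below in 5, against 19.8% of all genes. This and the later counts of groups that do not overlap are on normalised values. No array class holds both estrogen and placebo arrays, so no value within a class exists here. With the class as a term, which leaves the contrast to the spread within the E+P pair, the median was -1.88, against -0.50 over all genes, with 5 of 37 above 0.

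Among large-subunit genes, 16 of 21 lay above 0 with a median of 0.70. The highest was RPL8, whose protein lies at the peptide-bond centre. Its signals were 1497 and 11.6 with estrogen plus progesterone, 1214 and 2565 with estrogen, and 218 and 24.3 with placebo. The estrogen arrays were above both placebo arrays. Placebo 1, at 218, stood just above its floor of 216, and placebo 2 was below its floor, so the size of the difference is uncertain. The difference was 4.04 ± 1.60 (SE, 2 monkeys a group; limma adjusted p = 0.635).

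RPL12, at the base of the stalk that recruits elongation factors, had the smallest p of the family. Its signals were 3020.5 and 618 with estrogen plus progesterone, 3151 and 4109 with estrogen, and 319 and 307 with placebo. All 4 hormone arrays exceeded both placebo arrays, and the placebo values lay close together. Mean normalised log2 values were 11.08 ± 0.42 with estrogen and 8.25 ± 0.072 with placebo (SD, n = 2 each), a difference of 2.83 ± 0.82 (SE; limma unadjusted p = 0.00638, adjusted p = 0.635).

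RPL15 had signals of 8387 and 469 with estrogen plus progesterone, 6633 and 7208 with estrogen, and 702 and 838 with placebo. RPL17, beside the exit of the peptide tunnel, had 18276 and 1179, 12931 and 14483, and 2080.4 and 5290.5 in the same order. The estrogen arrays were above both placebo arrays in each, and E+P 2 lay below the placebo arrays. Their differences for estrogen minus placebo were 1.95 ± 1.04 and 1.53 ± 0.94.

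The stalk proteins RPLP1 and RPLP2 bind the elongation factors. For RPLP1 the signals were 13788 and 344 with estrogen plus progesterone, 9869 and 10518 with estrogen, and 2099 and 1602 with placebo. For RPLP2 they were 9756 and 673, 8109 and 7064, and 2997 and 3117. Both were above placebo on both estrogen arrays, and both were lowest on E+P 2. The normalised estrogen minus placebo difference was 1.45 ± 1.35 for RPLP1 and 0.24 for RPLP2.

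RPL13 and RPL30 were the other large-subunit genes among the 8 highest, at 1.36 ± 1.09 and 1.31 ± 1.33. RPL30 had 18564 and 500.02 with estrogen plus progesterone, 13052 and 14244 with estrogen, and 2119 and 7334 with placebo, so its placebo arrays differed by more than its estrogen arrays did.

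In the small subunit, 8 of 11 genes lay above 0 with a median of 0.52. RPS3, at the channel where the message enters, was the only one among the 8 highest. Its signals were 6387 and 202 with estrogen plus progesterone, 5526 and 12156 with estrogen, and 1241 and 717 with placebo. Estrogen lay above placebo on both arrays, with a difference of 1.97 ± 1.37. RPS28 differed less between groups, with 21687 and 1008, 16754 and 15876, and 13125 and 13201, and its normalised difference was 0.52.

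The lowest values were found for RPL24, which joins the large subunit late and bridges to the small one. It had 1134 and 659 with estrogen plus progesterone, 261 and 484 with estrogen, and 995 and 880.2 with placebo. Both estrogen arrays lay below the other 4. The difference was -1.83 ± 0.82 (SE; limma unadjusted p = 0.0502, adjusted p = 0.635).

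RPL35A followed at -1.48 ± 1.03, and it is a case of disagreeing probe sets described further on. RPS19BP1 was at -0.80 ± 0.83 and RPL23, a large-subunit protein that binds MDM2, at -0.73 ± 0.91. RPS6, the substrate of the S6 kinases, was at -0.71 ± 1.15. Its signals of 8069 and 6596 with estrogen spanned the 7084 of placebo 1 and lay above the 6139 of placebo 2. The deposited signals overlapped, while the normalised values did not. RPS7, RPL19 and RPL9 completed the 8 lowest at -0.41 ± 0.85, -0.32 ± 0.98 and -0.14 ± 1.06.

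The 4 tested paralogues all lay a little above 0, with a median of 0.24. RPL26L1, a relative of RPL26, stood at 0.58, with 1425 and 49.8 with estrogen plus progesterone, 1372 and 1636 with estrogen, and 485 and 592 with placebo. RPL22L1 stood at 0.26, RPL7L1 at 0.21 and RPL36AL at 0.10. RPL22, whose loss raises RPL22L1 in mouse cells, stood at 0.10.

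**Figure D3:**
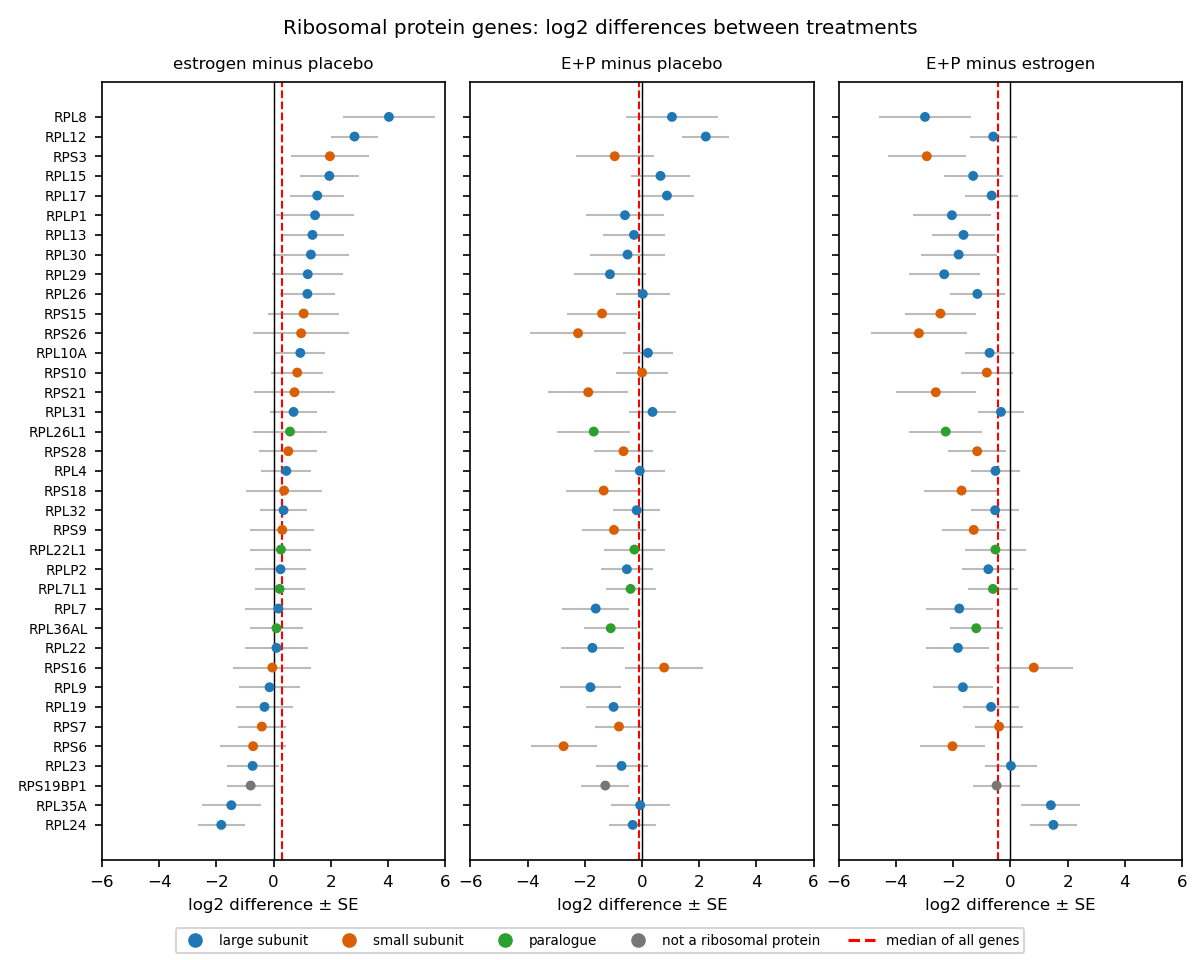
Log2 difference ± SE of the 37 genes in the 3 comparisons, in the order of the first, with 0 as a black line and the median of all 9781 genes as red dashes (2 monkeys a group). Genes lie mostly right of 0 for estrogen minus placebo, with a median of 0.447, and mostly left of 0 for estrogen plus progesterone minus estrogen, with a median of -1.16.

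Estrogen plus progesterone against placebo asks what the combined treatment did. Here most ribosomal protein genes lay below 0, but the direction turned with 1 array and no gene passed the test (lowest adjusted p = 0.992, limma). The median was -0.59 over 37 genes, against -0.10 over all genes. Of the 37, 28 lay below 0, or 75.7% against 53.8% of all genes, and 9 above, against 46.2%. E+P 2 and the placebo arrays form the class with few probe sets above the floor, and within it the median was -1.74, with 33 of 37 below 0, against -0.45 for all genes with 39% above 0. Without E+P 2 the median was 0.537, with 27 of 37 above 0, against 0.310 and 62.6% for all genes. The lone E+P array is assumed in both fits to vary like the other groups.

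Both E+P arrays lay above both placebo arrays for RPL12 alone, against 11.7% of all genes, at 2.23 ± 0.82 (SE; limma unadjusted p = 0.0219, adjusted p = 0.992). The RPL12 difference was 2.57 without E+P 2. Both lay below for RPS6, RPS7 and RPS19BP1, or 3 of 37 against 12.7% of all genes. For RPS6 the signals were 7433 and 336 with estrogen plus progesterone, 8069 and 6596 with estrogen, and 7084 and 6139 with placebo. By deposited signal only E+P 2 stood apart. The RPS6 difference was -2.74 ± 1.15 (SE; limma unadjusted p = 0.0389, adjusted p = 0.992), and -0.91 without E+P 2.

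Small-subunit genes had a median of -0.98, with 2 of 11 above 0, and large-subunit genes one of -0.28, with 7 of 21 above 0. Whether the subunits differed was not tested. These medians were 0.63 and 0.48 without E+P 2, with 8 of 11 and 16 of 21 above 0. RPS26, near the channel where the message leaves, had 10346 and 70.2 with estrogen plus progesterone, 8411 and 9129.9 with estrogen, and 1702 and 2636 with placebo. E+P 1 was the highest of the 6 and E+P 2 the lowest, below its floor. Its difference from placebo was -2.24 ± 1.68, and 1.05 without E+P 2.

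RPS21 had 14904 and 341 with estrogen plus progesterone, 10921 and 15585 with estrogen, and 4329 and 7805 with placebo. Its difference was -1.88 ± 1.40, and 0.63 without E+P 2. RPS15, near the decoding site, was at -1.40 ± 1.24, and 0.62 without E+P 2. The lowest of the large-subunit genes were RPL9 at -1.80 ± 1.06, RPL22 at -1.73 ± 1.10 and RPL7 at -1.62 ± 1.18, and the paralogue RPL26L1 was at -1.69 ± 1.29. Leaving out E+P 2, these 4 stood at -0.28, -0.05, 0.30 and 0.54. RPS15, RPL22 and RPL26L1 lay below the floor on E+P 2, so the size of their differences with both E+P arrays is not measured.

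The highest after RPL12 were RPL8 at 1.05 ± 1.60, RPL17 at 0.87 ± 0.94 and RPS16 at 0.78 ± 1.36, each with overlapping groups. RPL8 lay below the floor on E+P 2 and placebo 2, so the size of its difference is uncertain. RPS16 rests on dim values, with 43.3 and 378 with estrogen plus progesterone, 114 and 22.1 with estrogen, and 356 and 17.4 with placebo, above the floor on 3 of 6 arrays. RPL15 was at 0.65 ± 1.04, RPL10A at 0.21 ± 0.87 and RPL26 at 0.03 ± 0.95. RPL31, also among the 8 highest, was not above the floor on either placebo array and has no fold. Among the other genes of the fixed list, RPL36AL was at -1.09, RPLP1 at -0.59, RPLP2 at -0.53, RPL7L1 at -0.40 and RPL22L1 at -0.27. Without E+P 2, RPLP1 was at 1.82 and RPL22L1 at 1.19, so both changed sign.

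Estrogen plus progesterone against estrogen asks what adding progesterone did. Of 37 genes, 33 lay below 0, or 89.2% against 66% of all genes, and 4 above, against 34%. The median was -1.16 against -0.44. No gene passed the test (lowest adjusted p = 0.799, limma). Both E+P arrays lay below both estrogen arrays in 8 genes, or 21.6% against 17.9% of all genes. These were RPL22, RPL26, RPL31, RPL32, RPL7L1, RPL9, RPS19BP1 and RPS6. Both lay above for RPL24 alone, against 13.5% of all genes.

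Within the class of E+P 1 and the estrogen arrays, which leaves out E+P 2, the median was -0.038 with 17 of 37 above 0, against 0.049 and 55.2% for all genes, and no gene was called. Without E+P 1 it was -2.14, and limma then called 4200 of 26383 probe sets, or 15.9%, among them 22 of the 54 member probe sets, all lower. That fit rests on E+P 2 alone for the combined treatment. It also sets an array with 28.7% of its probe sets above the floor against arrays with 62.2% and 58.5%.

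The lowest difference was for RPS26 at -3.20 ± 1.68, and it was 0.08 without E+P 2. RPL8 was at -2.99 ± 1.60, RPS3 at -2.92 ± 1.37 and RPS21 at -2.61 ± 1.40. RPS15 was at -2.45 ± 1.24, RPL29 at -2.32 ± 1.25, RPL26L1 at -2.26 ± 1.29 and RPLP1 at -2.05 ± 1.35. Each of these 8 had a signal on E+P 1 within or above the range of the estrogen arrays, and its lowest signal on E+P 2. For all but RPS21 and RPLP1, that signal lay below the E+P 2 floor of 283, so the size of those differences is not measured. Without E+P 2 the 8 differences lay between -0.63, for RPS3, and 0.37, for RPLP1. RPL29 illustrates it, with 2551 and 139 with estrogen plus progesterone, 2111 and 4908 with estrogen, and 808 and 505 with placebo.

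RPL24 was the highest at 1.50 ± 0.82, and 1.18 without E+P 2, with groups that did not overlap. RPL35A was at 1.41 ± 1.03, RPS16 at 0.82 ± 1.36 and RPL23 at 0.02 ± 0.91. In the fixed list, RPS6 stood at -2.03, RPL22 at -1.84, RPL36AL at -1.20, RPLP2 at -0.77, RPL7L1 at -0.61 and RPL22L1 at -0.52. RPL22L1 was at 0.94 without E+P 2, with 3527 on E+P 1 against 1797 and 1416 with estrogen.

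All 4 tested paralogues lay below 0 in both comparisons of the combined treatment, with medians of -0.75 against placebo and -0.90 against estrogen.

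**Figure D4:**
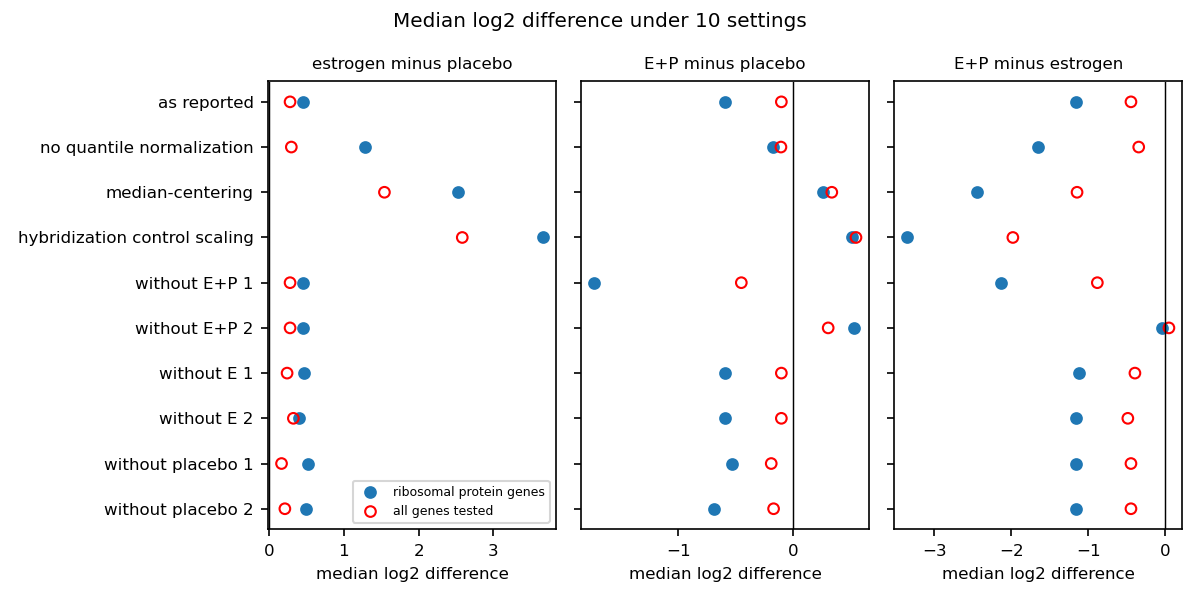
Median log2 difference of the ribosomal protein genes (filled) and of all genes tested (open) in the 3 comparisons, as reported, under 3 other scalings and with each array left out. The median against placebo is -0.59 with both E+P arrays and 0.537 without E+P 2, and the estrogen minus placebo median reaches 3.67 with the hybridization controls.

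Size and, in 1 comparison, direction depended on how arrays were put on a common scale. With the deposited scaling alone, the medians were 1.28 for estrogen minus placebo, -0.18 for the combined treatment minus placebo and -1.65 for the combined treatment minus estrogen, against 0.30, -0.10 and -0.34 for all genes. Centring each array on its median gave 2.53, 0.27 and -2.45, against 1.54, 0.34 and -1.15. Scaling to the hybridization controls, an alternative added after the data were seen, gave 3.67, 0.52 and -3.35, against 2.58, 0.55 and -1.98. The gap of the family median to that of all genes was 0.167 for estrogen minus placebo in the reported fit and 0.986 with the deposited scaling. For estrogen plus progesterone minus estrogen it was -0.717 and -1.3. For estrogen plus progesterone minus placebo the family lay below all genes by 0.49 in the reported fit and by less than 0.1 under the other 3. Centring and control scaling change each array by 1 amount. The deposited scaling therefore nearly fixes their gaps in advance, and they are no separate checks of it.

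Probe sets of 1 gene did not always move together. Of the 41 genes, 17 have more than 1 probe set and 13 more than 1 that was tested. Their signs differed in 4 of 13 genes for estrogen minus placebo, in 9 for estrogen plus progesterone minus placebo and in 4 for estrogen plus progesterone minus estrogen. Ribosomal protein genes have many processed pseudogenes, so a probe set can read more than 1 locus. By name, 51 member probe sets end in _at, 14 in _s_at and 4 in _x_at, endings that Affymetrix uses for probes specific to 1 transcript, shared by several, or open to cross-hybridization.

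RPL35A, a large-subunit protein mutated in some patients with Diamond-Blackfan anaemia, had probe sets whose signs differed in all 3 comparisons. The probe set that stands for it had signals of 16751 and 60427 with estrogen plus progesterone, 15873 and 9330.5 with estrogen, and 39684 and 60310.3 with placebo. Another probe set had 18940.3 and 774, 14751 and 12918, and 7142 and 6205, and the last, a dim one, had 82.5 and 400.2, 26.8 and 33.4, and 287 and 193. The first was brightest on E+P 2 and placebo 2, where the next had its lowest signals, 774 and 6205, both above the floor. The estrogen minus placebo difference was -1.48 from the first and 0.75 from the next. The dim one was not above the floor on either estrogen array.

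The first RPL35A probe set followed the hybridization controls. Its log2 signal ranged over 2.70 across the 6 arrays, and over 1.15 once the log2 level of the controls was subtracted, the smallest range of the 37 genes. The next smallest was 2.67, for RPL31, and the range of the family median was 3.80 before and 6.56 after the same subtraction. For the dim RPL35A probe set, which does not stand for the gene, the range was 3.90 before and 1.01 after it. For the GAPDH 3′ control it was 1.97 and 1.66. The signal of the first RPL35A probe set thus kept pace with the added control RNA, as did that of the dim one. The part of that in their differences was not tested.

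RPL22 had a probe set at 1023 and 94.0 with estrogen plus progesterone, 1414 and 1070.3 with estrogen, and 566 and 649 with placebo, which stands for the gene. Another had 1024 and 286, 678 and 1065, and 29.7 and 60.3, with placebo below the floor on both arrays. The estrogen minus placebo difference was 0.10 from the first. From the other, only a bound can be given, at least 3.95-fold higher with estrogen. Here and below, such a bound sets the mean normalised level of one group against the other's with the floor in place of levels under it.

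RPL13 has 5 probe sets, 4 of them tested, with estrogen minus placebo differences of 1.36, -0.27, 1.56 and -1.43. The probe sets of RPS6 lay closer, at -0.71 and -0.29 for estrogen minus placebo and at -2.74 and -1.32 for the combined treatment minus placebo. The second had signals of 2949 and 719.9 with estrogen plus progesterone, 3261 and 9686 with estrogen, and 2560.1 and 4482 with placebo.

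**Figure D5:**
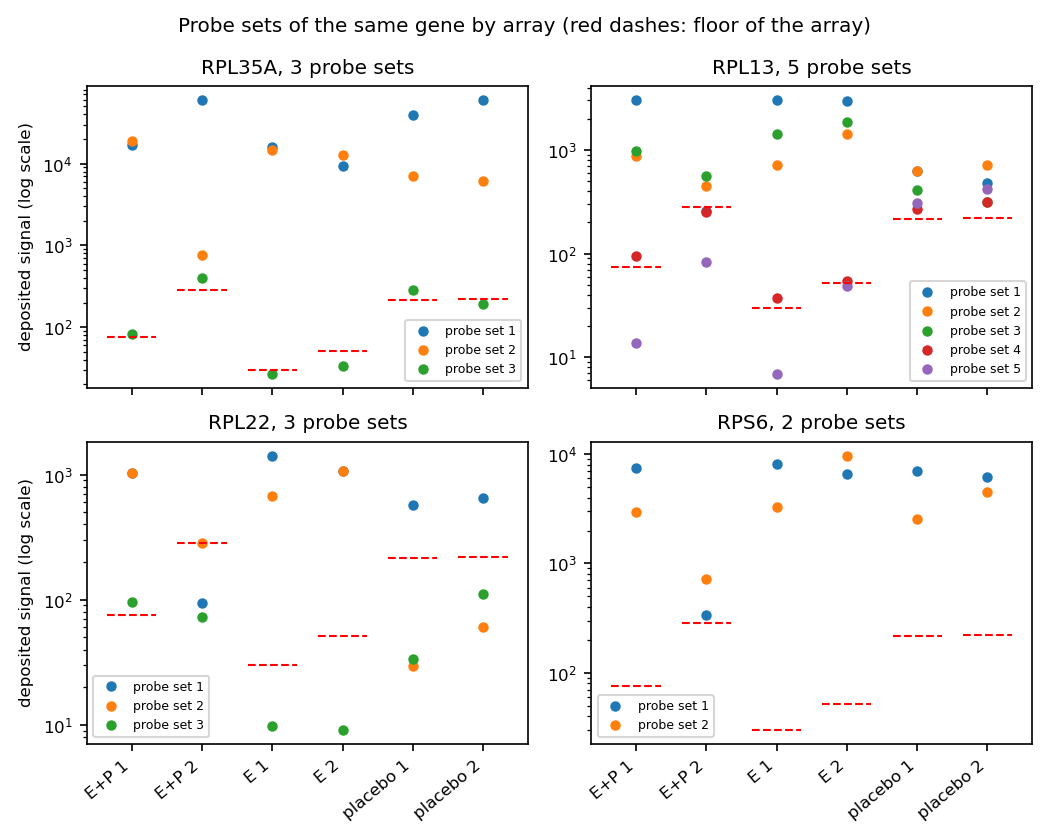
Deposited signal (log scale) on each array of the probe sets of RPL35A, RPL13, RPL22 and RPS6, with the floor of each array as red dashes; probe set 1 stands for the gene. The first RPL35A probe set reaches 60427 on E+P 2, where the second has 774.

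Other genes of ribosome production and control were read from 4 lists. Of 88 ribosome biogenesis factors, 64 were tested and 0 called in any comparison. In estrogen minus placebo 42 of 64 lay above 0 with a median of 0.35, against 0.28 over all genes. BRIX1, which helps assemble the large subunit, had 109 and 249 with estrogen plus progesterone, 197 and 109.8 with estrogen, and 35.8 and 54.1 with placebo, of which only E+P 1, E 1 and E 2 exceeded their floor. Both estrogen signals lay under the placebo floors of 216 and 221, so no direction can be given for BRIX1. WDR43 and NOL6 were also below the floor on both placebo arrays. WDR43 was at least 2.21-fold higher with estrogen, with signals of 362 and 379 against placebo floors of 216 and 221. SBDS was above the floor on 1 placebo array, and its estrogen minus placebo difference was 2.58 ± 1.72. In the combined treatment the list's median was -0.38 against placebo, with 24 of 64 above 0, and -0.65 against estrogen, with 14 above 0. They were 0.25 and -0.060 without E+P 2.

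Of 26 other transcripts with a terminal oligopyrimidine tract, 14 were tested and 0 called. Their medians were 0.62 for estrogen minus placebo, with 10 of 14 above 0, -0.38 for the combined treatment minus placebo, with 6 above 0, and -0.38 against estrogen, with 5 above 0. The medians of the combined treatment turned to 0.51 and 0.095 without E+P 2, with 11 and 9 of 14 above 0. RACK1, a protein bound to the small subunit, had 2919 and 45.6 with estrogen plus progesterone, 3304 and 5567 with estrogen, and 585 and 1379 with placebo. FAU, whose product is cut to yield a small-subunit protein, had 3888 and 39.3, 3426 and 5741, and 1243 and 720.1. Both follow the array order of the ribosomal proteins, lowest on E+P 2. Their combined treatment minus estrogen differences were -3.22 ± 1.49 and -3.19 ± 1.57. RACK1 and FAU lay below the floor on E+P 2, so the size of these differences is not measured. EEF2, the elongation factor that moves the ribosome along, went the other way with estrogen at -1.56 ± 0.90, with 216 and 171 on estrogen arrays against 848 and 391 on placebo arrays.

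In the mTOR and S6 kinase list, 24 of 33 genes were tested and 0 called. In estrogen minus placebo 18 lay above 0 with a median of 0.75, against 0.28 over all genes. DDIT4, an inhibitor of mTOR complex 1, had 680.01 and 50.3 with estrogen plus progesterone, 854 and 555 with estrogen, and 164 and 112 with placebo, and was at least 3.33-fold higher with estrogen than with placebo, where it was below the floor on both arrays. DEPTOR, another mTOR inhibitor, and the kinase RPS6KA6 were under the floor in both placebo monkeys too, with bounds of at least 2.12-fold and 1.33-fold higher. Their deposited signals on E 2, 200.05 and 125, lay under the placebo floors, so these bounds rest on the normalisation. RPS6KA5, a kinase above the floor on 1 placebo array, was at 2.40 ± 0.99. RPS6KB1, the kinase of RPS6, was at 1.23 ± 0.88 in the combined treatment minus placebo. EIF4E, the cap-binding factor, was at -1.55 ± 0.93 against placebo and -1.79 ± 0.93 against estrogen. Its signals were 324 and 104 with estrogen plus progesterone, 633 and 806 with estrogen, and 445 and 407 with placebo. On E+P 2 it lay below the floor, so the size of these differences is not measured. The list's medians for the combined treatment were -0.32 against placebo and -0.86 against estrogen, with 9 and 2 of 24 above 0, and 0.41 and -0.15 without E+P 2.

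Mitochondrial ribosomal proteins translate the transcripts of the mitochondrial genome. Of 62, 57 were tested and 0 called. Their medians were 0.26 for estrogen minus placebo, with 36 of 57 above 0, -0.47 for the combined treatment minus placebo, with 19 above 0, and -0.79 against estrogen, with 5 above 0. MRPL41 had 775 and 40.2 with estrogen plus progesterone, 767 and 924 with estrogen, and 81.7 and 81.6 with placebo, which lay below the placebo floors, and it was at least 3.91-fold higher with estrogen. MRPL45 was at -2.69 ± 1.08 for the combined treatment minus placebo, with 376 and 44.8 against 595 and 643. Its E+P 2 signal lay below the floor, so the size of that difference is not measured. MRPS18B was among the 5 above 0 against estrogen, at 2.17 ± 0.99, with 166 and 644 against 75.4 and 50.3. Without E+P 2 the list's combined treatment medians were 0.27 and 0.10. Over all genes the medians were 0.28, -0.10 and -0.44, and whether the mitochondrial and the cytosolic family differed was not tested.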

How the data were processed

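RNA of serotonin neurons captured by laser from 6 female monkeys was extracted with a column microkit, biotin-labelled and hybridised to 1 rhesus array per monkey, per the labels' protocols. Titles gave the group of each sample, with 2 animals a group. The deposited intensity values are linear, 1 per probe set and array, and the values show a mean near 200 on each array after trimming 2% from each end. The sources used here do not give the summarization software or the genome build, so no positions or detection calls are used. Scaling of this kind raises all signals of an array with little labelled RNA, background included.

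Probe sets were named through GEO's platform annotation, with symbols updated through the RefSeq gene table where gene numbers matched, as they did for 24616 of the 24956 probe sets with 1 symbol. Another 361 had several symbols and 27449 none. The 99 control probe sets were left out of the fits. Of them, 27 are hybridization controls and 59 set the floor, which is the 95th percentile of these per array. For the other 52766, 16 was added to the intensity, log2 was taken, arrays were quantile-normalised, and the dimmer ones, whose mean fell under the 50th percentile, were dropped. This left 26383 probe sets.

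The 3 groups were fitted together with limma 3.58.1 in R 4.3.3, with group means, moderated variances and Benjamini-Hochberg adjustment over all tested probe sets. The code was tested on simulated data. Per gene, the tested probe set with the highest mean was used. Members are named by a rule: up to 8 highest and 8 lowest differences per comparison, plus a fixed list of stalk, regulatory and paralogue genes, and up to 4 genes of each of the 4 pathway lists by smallest p. RPS19, RPS28 and RPL32 were also named, after their values were seen. The members and lists were chosen with earlier results of these data known. Lists are given by counts and medians without a test of their own. Alternatives were another offset, normalization and filter, array weights, a replicate block, the signal class of the arrays as a covariate, only the groups compared, each array left out, other choices of probe set, and, added after the data were seen, scaling to the hybridization controls and the subunit proteins alone. No sequences are shown.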

Additional observations from a re-analysis of the deposited data

Results flagged for a closer look

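Probe sets whose annotation gives several symbols, 1 of them a ribosomal protein, were not used above, since no single gene can be named from them. There are 32, of which 25 were tested and 18 exceeded the floor on all 6 arrays. They were looked at because they hold signal outside the measurements used. On both estrogen arrays 15 of them, or 46.9%, exceeded the floor and both placebo arrays on normalised values, against 19.6% of all probe sets. On both arrays of estrogen plus progesterone 1 did so, or 3.12% against 4.27%. These shares are not matched for brightness, since 25 of the 32 passed the filter on low values, against 26383 of all 52766. E+P 2 was the lowest of the 6 arrays in 23 of the 32. Over the 25 tested, the median log2 difference was 0.59 for estrogen minus placebo, with 21 above 0, -0.58 for estrogen plus progesterone minus placebo, with 7 above 0, and -1.28 for estrogen plus progesterone minus estrogen, with 2 above 0. These lie on the same side of 0 as the medians of the 37 genes. They may read the same transcripts as the members, so they are no second set of genes.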

How the results depend on the processing

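With 2 monkeys a group, 3 residual degrees of freedom and 3 arrays on which few probe sets exceed the floor, the fit has little precision: the median SE over all genes was 0.945, and 1.04 over the family. The median difference of the family kept its sign for estrogen minus placebo under every setting tried except the signal class as a covariate. For estrogen plus progesterone minus estrogen it did so under all of them. There it was only -0.038, with 17 of 37 above 0, without E+P 2 and with the signal class as a covariate, which give the same estimate. Array weights, the replicate block, the fit of 2 groups alone and leaving out an array outside the comparison could not move these medians. Signs kept under those settings therefore show no stability.

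For estrogen minus placebo the median was 2.53 with median-centering, 3.67 with hybridization control scaling and -1.88 with the signal class as a covariate. With array weights, limma called 434 of 26383 probe sets (1.64%), 288 of them higher, and 3 member probe sets: RPL8 at 4.04 (adjusted p = 0.0441), a probe set of RPL22 (at least 3.95-fold higher, adjusted p = 0.0326) and one of RPL29 (at least 2.64-fold higher, adjusted p = 0.0476), both below the floor with placebo. RPL8 had an adjusted p of 0.635 without weights, and it was below the floor on placebo 2. For estrogen plus progesterone minus placebo the median was 0.27 with median-centering, 0.52 with hybridization control scaling and -1.74 with the signal class as a covariate, and lay between -1.74 and 0.537 with 1 array left out. For estrogen plus progesterone minus estrogen it was -2.45 with median-centering and -3.35 with hybridization control scaling. There, leaving out 1 array gave 0 to 4200 called probe sets and 0 to 22 called member probe sets, each highest without E+P 1, where the lone E+P 2 is assumed to vary like the other groups. The member probe sets called there had differences of -6.49 to -2.57. Several of these differences rest on an E+P 2 signal below its floor of 283, such as RPS26 at 70.2 and RPL8 at 11.6, so their size is not measured.

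Fits with the replicate number as a replicate block called 0 probe sets. They left the medians of 0.447, -0.594 and -1.16 as they were, which the balanced groups fix in advance. Deviations of same-numbered arrays correlated at 0.082, -0.063 and -0.032 for the 3 pairs of groups. With 2 arrays a group these values cannot show whether the numbers pair animals, and no label says that they do.

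Of 61 named results under the settings tried, 967 comparisons in all, 872 kept direction and call, 84 changed sign and 11 passed the threshold. Under both offsets, both filters, the replicate block, array weights and the fit of 2 groups alone none changed sign. Of these, only the offsets could have changed a sign, since the others leave each log2 difference as it was. Leaving out an array of a group outside the comparison also leaves it unchanged. The 872 is therefore no measure of how stable the directions are. Those that did follow, with the cause not tested. With median-centering, estrogen minus placebo was 1.74 for RPL19, 1.53 for RPL23, 2.10 for RPL9, 1.17 for RPS19BP1, 1.39 for RPS6 and 1.60 for RPS7. Estrogen plus progesterone minus placebo was 1.08 for RPL22L1, 0.20 for RPL36AL, 0.41 for RPL7L1, 0.71 for RPLP1, 0.20 for RPLP2 and 0.23 for RPS15, and estrogen plus progesterone minus estrogen was -1.66 for RPL23. Without quantile normalization, estrogen minus placebo was 0.49 for RPL19, 0.29 for RPL23, 0.85 for RPL9, 0.15 for RPS6 and 0.36 for RPS7. Estrogen plus progesterone minus placebo was then 0.64 for RPL22L1, -0.042 for RPL31 and 0.27 for RPLP1, and minus estrogen -0.86 for RPL23.

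With the signal class as a covariate, estrogen minus placebo was -1.88 for RPL13, -0.96 for RPL15, -0.46 for RPL17, -3.27 for RPL22, -2.66 for RPL22L1, -3.88 for RPL26L1, -3.23 for RPL30, 0.94 for RPL35A, -1.78 for RPL36AL, -0.65 for RPL7L1, -1.53 for RPL8, -3.39 for RPLP1, -1.70 for RPLP2 and -2.62 for RPS3. Estrogen plus progesterone minus placebo was -0.40 for RPL10A, -0.81 for RPL15, -0.12 for RPL17, -0.92 for RPL26 and -1.74 for RPL8. Minus estrogen it was 0.94 for RPL22L1, 0.37 for RPLP1, 0.20 for RPLP2, -0.36 for RPS16 and 0.084 for RPS26.

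With 1 array left out, 28 of the 61 changed sign, 21 of them without E+P 1 or E+P 2. Their ranges for estrogen minus placebo were -0.88 to 0.25 for RPL19, -0.0070 to 0.21 for RPL22, -0.33 to 0.85 for RPL22L1, -0.21 to 0.42 for RPL36AL, -0.46 to 0.88 for RPL7L1, -0.45 to 0.17 for RPL9 and -0.87 to 0.050 for RPS7. For estrogen plus progesterone minus placebo they were -0.40 to 0.81 for RPL10A, -0.81 to 2.10 for RPL15, -0.12 to 1.87 for RPL17, -1.73 to 1.19 for RPL22L1, -0.92 to 0.97 for RPL26, -3.91 to 0.54 for RPL26L1, -3.54 to 0.30 for RPL7, -1.07 to 0.27 for RPL7L1, -1.74 to 3.83 for RPL8, -3.01 to 1.82 for RPLP1, -1.50 to 0.44 for RPLP2, -3.41 to 0.62 for RPS15, -1.13 to 2.68 for RPS16, -4.39 to 0.63 for RPS21 and -5.52 to 1.05 for RPS26. For estrogen plus progesterone minus estrogen they were -1.99 to 0.94 for RPL22L1, -0.85 to 0.88 for RPL23, -4.46 to 0.37 for RPLP1, -1.74 to 0.20 for RPLP2, -0.36 to 1.99 for RPS16 and -6.49 to 0.084 for RPS26. In the comparisons of the combined treatment, the low ends for RPL26L1, RPL8, RPS15 and RPS26 rest on E+P 2 alone, where each lay below the floor.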
